A study of Mus musculus with 7 samples.

Results

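The nascent transcriptome of GFI1+ IAHC cells was compared between 2 libraries from cells kept in compE (compE 1 and 2) and 3 libraries from cells from which compE had been washed out (washout 1, 2 and 3), that is 5 of the 7 libraries used here. The members were chosen by condition alone, and all 55487 genes of the count table were read, of which 10311 had passed the authors' filter and were tested. GFI1+ IAHC cells are the CD31+cKIT+GFI1+ cells of the intra-aortic hematopoietic clusters. They were sorted from the AGM, the aorta-gonad-mesonephros region, of E11.5 embryos of the strain given as CD1/Gf1+ in the labels, with the Gfi1:tomato reporter marking GFI1. All cells, those of both conditions, had first spent the night in compE. After a wash, sets of 300 to 400 cells were cultured for 4 h in methylcellulose with growth factors and 0.3 mM EU, with DMSO for the washout or with compE. The labels give compE as 10 mM, whereas the study's methods give it in μM. The washout is therefore a release from inhibition in cells that carried the same overnight treatment, and no library from cells that never met compE was used here. A number in a library's name marks 1 biological sample (the labels speak of an embryo, the methods of pooled embryos), so compE 1 pairs with washout 1 and compE 2 with washout 2. Washout 3 has no compE partner here. The other 2 libraries, Fc-JAG1 1 and Fc-JAG1 3, from cells given a recombinant JAG1 ligand, entered the fits only to help estimate the spread.

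CompE inhibits γ-secretase, the membrane protease that makes the last cut in a Notch receptor after a ligand on a neighboring cell has bound it. The cut frees the intracellular domain, which moves to the nucleus, joins the DNA-binding protein RBPJ and a Mastermind coactivator, and turns on target genes such as those of the Hes and Hey families. In the embryonic aorta, Notch signaling takes part in both the arterial fate and the emergence of blood stem cells. EU is a uridine analog that enters RNA as it is made, so RNA captured through EU reports transcription during the culture, not the RNA already in the cell. The comparison thus asks which genes were transcribed differently in 4 h of continued inhibition and in 4 h of release from it.

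The libraries differed in how many genes they held. Total counts ran from 21652927 in washout 1 to 33974693 in compE 2. Of the tested genes, 28.9% had fewer than 10 counts in compE 1, 7.6% in compE 2, 43.8% in washout 1, 5.8% in washout 2 and 32.0% in washout 3. CompE 2 and washout 2, which share a number, were thus gene-rich, and the other 3 libraries were gene-poor, with each condition holding both kinds. The median tested gene had 333 counts in compE 1, 1685 in compE 2, 20 in washout 1, 1473 in washout 2 and 412 in washout 3. Mitochondrially encoded genes took 7.07% of the counts in compE 1 and 12.7% in washout 1, against 1.14% to 2.49% in the other 3 libraries. Across tested genes, the Spearman correlation of CPM was 0.846 between compE 2 and washout 2 and 0.283 to 0.544 for the other 9 pairs among the 5 libraries. Fc-JAG1 1, which carries another number, was also gene-rich, with 9.5% of tested genes under 10 counts. Its correlation was 0.831 with compE 2 and 0.833 with washout 2. The genes are not independent replicates, and no p is attached to these correlations.

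**Figure D1:**
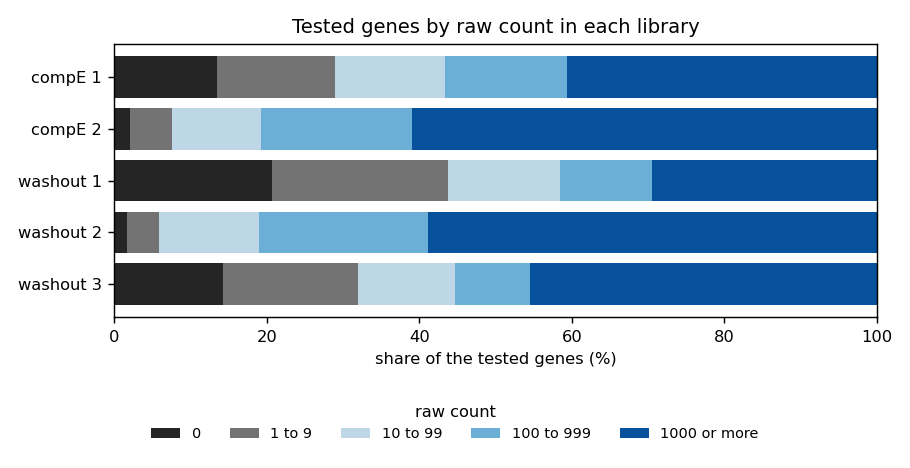
Share of the tested genes (x axis, %) by raw count class in each of the 5 libraries (y axis), 1 stacked bar per library. CompE 2 and washout 2 hold 2.08% and 1.69% of the tested genes at 0 counts, whereas compE 1, washout 1 and washout 3 hold 13.5%, 20.7% and 14.2%.

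The markers of the sorted cells were present in most libraries. Of 10 IAHC markers, 7 had at least 10 counts in compE 1, 8 in compE 2, 8 in washout 1, 9 in washout 2 and 8 in washout 3, and their summed level was 2583 to 2673 CPM with compE and 1936 to 3892 CPM in the washout. Runx1, the transcription factor needed for blood emergence, stood at 968 and 1015 CPM with compE and at 1015, 458 and 1201 CPM in the washout. Gfi1 itself, which encodes the repressor that the sort relied on through its reporter, had 0 counts in compE 1, compE 2 and washout 1, 12 in washout 2 and 2477 in washout 3. The defining transcript was thus at 0 counts in 3 of the 5 libraries, and 1 library supplied nearly all of its counts. Markers of other cells were uneven. Of 10 macrophage markers, 1 reached 10 counts in compE 1, 5 in compE 2, 5 in washout 1, 7 in washout 2 and 3 in washout 3, and their sums were 58.8 and 361 CPM with compE and 281 to 524 CPM in the washout. C1qc was at 0 in all 5. The 10 erythrocyte markers summed to 25 to 445 CPM, highest in washout 2, with Alas2 at 0 in all 5, and the 7 endothelial markers to 43.8 to 156 CPM, with Cldn5 at 0 in all 5. Mesenchyme, neural and epithelium markers summed to at most 17.7 CPM in any library, and none of these 22 listed genes was tested.

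No gene was called different between continued compE and the washout by edgeR's quasi-likelihood test (0 of 10311, 0.0%) at an adjusted p under 0.05. At an unadjusted p under 0.05 there were 146 genes higher with compE (1.42%) and 127 lower (1.23%). The edgeR likelihood ratio test called 1 gene higher (Phf11c) and limma voom 1 lower (Fth1). The Wald test of DESeq2, with biological sample and condition as terms like edgeR's, called 584 genes higher (5.66%) and 378 lower (3.67%), where a call also required 10 counts or more in 2 libraries of 1 condition. Without the block that pairs libraries by their number, the DESeq2 calls were 150 higher and 175 lower. Counted by position in CPM alone, both compE libraries lay above every washout library for 1121 genes (10.9%) and below every one for 700 (6.79%). Of these, DESeq2 called 377 of the genes that lay above and 187 of those that lay below. Leaving out 1 library also moved the DESeq2 counts. Dropping compE 1 left 13 higher and 77 lower, dropping compE 2 left 189 and 1030, dropping washout 1 left 168 and 185, dropping washout 2 left 1334 and 1096, and dropping Fc-JAG1 1 left 104 and 83. The common dispersion over all 7 libraries was 2.42, a coefficient of variation of 1.56 left after the terms for biological sample and condition. In these bulk libraries, fewer cells of a type and less RNA per cell cannot be told apart.

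Most genes that DESeq2 called had low counts in the gene-poor libraries of 1 condition. Among the 584 called higher, 468 (80.1%) had fewer than 10 counts in both washout 1 and washout 3, against 17.6% of all tested genes, while their median log2 ratio of compE 2 over washout 2 was 0.65. Among the 378 called lower, 332 (87.8%) had fewer than 10 counts in compE 1, against 28.9% of all tested genes, and their median log2 ratio in that same gene-rich pair was −1.39. Within the gene-rich pair, 66.1% of all tested genes differed by less than 2-fold. Of the called genes, 289 of the 584 (49.5%) and 147 of the 378 (38.9%) did so. These shares describe the contrast that made the calls and are no separate evidence on it. The part of library quality in the calls was not tested.

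**Figure D2:**
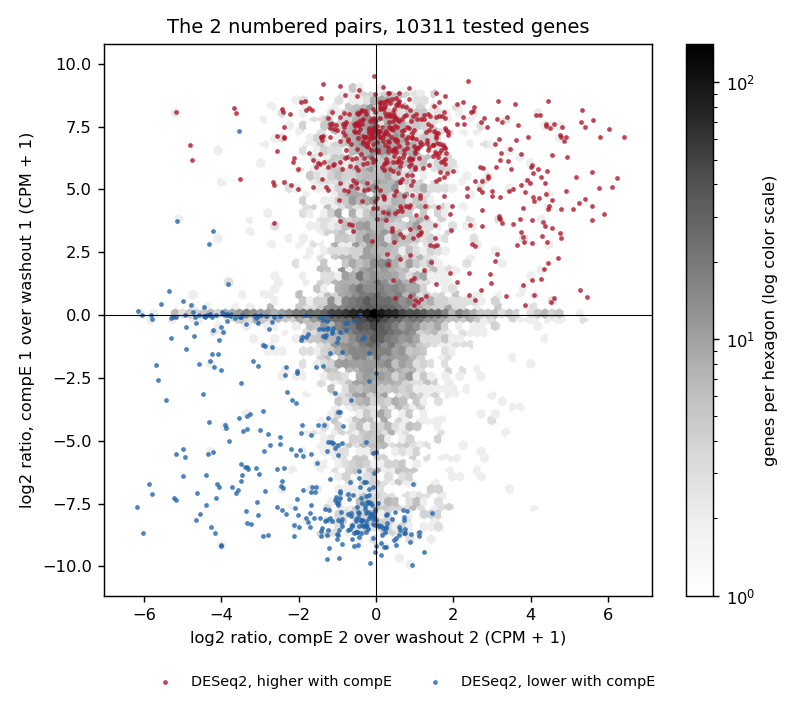
Log2 ratio of CPM + 1 for compE 2 over washout 2 (x axis) and for compE 1 over washout 1 (y axis), with gray hexagons for all 10311 tested genes (log color scale) and points for genes that DESeq2 called higher (red) or lower (blue). The genes called higher have median ratios of 0.65 on the x axis and 6.57 on the y axis, and those called lower −1.39 and −6.71.

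The 2 numbered pairs gave different pictures. In compE 2 and washout 2, 7769 genes had at least 100 counts in both libraries, 87.1% of the 8916 with that many in either, and 70.3% of the 7769 differed by less than 2-fold. In compE 1 and washout 1 the shared genes were 3077 of 7055 (43.6%), and 38.7% of them differed by less than 2-fold. Pairs of washout libraries, which had the same treatment, shared 43.0% to 61.7% of such genes, with 34.2% to 45.5% of the shared genes within 2-fold. The 2 libraries of the gene-rich pair, one of each condition, were thus closer to each other than any 2 washout libraries were. No test can be made on 1 library per condition, so the genes that differed most in that pair are given as counts only, and they were chosen after their values were seen. Fam126b (also Hycc2), whose protein is part of a complex that makes a phosphoinositide lipid at the plasma membrane, had 10215 and 5795 counts under compE against 2, 213 and 0 in the washout. Alcam, an adhesion molecule of the immunoglobulin superfamily, had 6205 and 4495 with compE and 7, 152 and 10544 in the washout. For Alcam, washout 3 lay above both compE libraries, and for Fam126b the conditions did not overlap. In the other direction Armt1 had 47 and 123 counts under compE against 133, 3651 and 8987 in the washout, with no overlap.

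Genes for γ-secretase, the enzyme that compE inhibits, and for the sheddases that cut Notch before it did not share a direction. Ncstn, the subunit that recognizes substrates, had 7307 and 9373 counts under compE against 0, 4747 and 8 in the washout. DESeq2 called Ncstn higher (adjusted p = 0.00179), and edgeR's unadjusted p was 0.0678. Aph1a, a scaffold subunit, ran the other way, with 0 and 233 counts against 1174, 360 and 374, and did not overlap (adjusted p = 0.0626 by DESeq2). Other subunits overlapped. Psen2, a presenilin, had 294 and 2636 with compE and 68, 1663 and 7941 in the washout, and Psenen, the presenilin enhancer, 152 and 214 against 0, 301 and 405. Both sheddases were low in compE 1 alone among the compE libraries. Adam10 had 13 and 10524 counts against 4830, 6668 and 9495, and Adam17 had 15 and 3110 against 731, 3223 and 8. Aph1b and Aph1c, with at most 8 counts in any library, were not tested.

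Of 8 Notch receptors and ligands, 4 were tested and none was called or lay outside the range of the other condition. Most tested genes did the same, with 8490 of 10311 overlapping, and DESeq2 called 5.66% of them higher and 3.67% lower. Notch1, the receptor of the hemogenic lineage, had 683 and 5944 counts under compE against 424, 5188 and 4 in the washout. Its 2 high libraries were the gene-rich ones, at 153 and 144 CPM. Notch2 had 837 and 1705 against 21, 3630 and 6023. The ligand Jag1 had 462 and 10 against 1789, 12 and 3, and Jag2 had 203 and 40 against 257, 211 and 1482. Both ligands thus varied within a condition by more than 5-fold. Notch3, Notch4, Dll1 and Dll4, at 53 counts or fewer in each library, did not pass the filter. Dll3, a Notch ligand that was not on this list and that acts mainly in cis, had 104 and 75 counts under compE against 0, 0 and 0 in the washout, at least 24.9-fold higher by the floor of 3 counts per library. DESeq2's adjusted p for Dll3 was 0.264 and edgeR's unadjusted p was 0.00596.

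Notch modifiers, the enzymes and adaptors that decorate, sort or degrade receptors and ligands, had 14 tested members. DESeq2 called 1 higher, the endocytic adaptor Numbl, and none lower (5.66% and 3.67% of all tested genes). Above every washout library lay 2 (10.9% of all tested genes). Besides Numbl this was Dtx3, a ubiquitin ligase of the Deltex family, with 4379 and 4471 counts against 1, 1777 and 2253. Pofut1, which adds the O-fucose that ligand binding needs, had 3853 and 2011 against 0, 1339 and 2878. Its 3 Fringe partners, which extend that fucose, overlapped. Lfng had 95 and 1244 counts under compE against 0, 423 and 167 in the washout, Mfng had 9170 and 4267 against 8605, 1908 and 2195, and Rfng had 120 and 2257 against 0, 1503 and 8090. Mib1, the ligase that drives ligand endocytosis, had 7878 and 8614 against 1, 7065 and 6616, and Mib2, its relative, 6895 and 944 against 1340, 228 and 0. Numb, the classic inhibitor of Notch, was at 421 and 3295 against 4511, 3653 and 2235. The ligases Itch (9403 and 1855 against 5, 3896 and 4950), Dtx3l (0 and 188 against 1, 10 and 3338) and Dtx4 (0 and 1771 against 0, 3804 and 9166) each overlapped between conditions. So did Poglut1, which adds O-glucose, at 702 and 1868 against 1, 1914 and 3, and the convertase Furin at 540 and 5817 against 1037, 2795 and 33618. Washout 1 was at 5 counts or fewer in 9 of the 14. Neurl1a, Dtx1, Dtx2 and Fbxw7 were not tested, Dtx2 at 4 and 1756 counts against 0, 3 and 1.

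None of the 18 tested genes of the Notch nuclear complex was called, and all 18 overlapped. Among all 10311 tested genes, 8490 overlapped, and DESeq2 called 5.66% higher and 3.67% lower. Rbpj, the DNA-binding partner, had 4213 and 2255 counts under compE against 6, 3731 and 1409 in the washout. Of the Mastermind coactivators, Maml3 had 1992 and 7739 against 7334, 11144 and 4614, and Maml2 had 10 and 270 against 13, 1657 and 6415, while Maml1 was not tested at 1 count or fewer per library. Among the acetyltransferases, Ep300 had 41 and 3513 against 2810, 4206 and 1279, Crebbp 3116 and 7828 against 1239, 3652 and 4704, Kat2a 98 and 2795 against 0, 5281 and 4964, and Kat2b 14 and 1306 against 0, 1248 and 4. The corepressors Ncor1 (10232 and 8353 against 3829, 7848 and 3844), Spen (2847 and 8803 against 5767, 3841 and 2610) and Ctbp1 (6255 and 3590 against 3591, 6164 and 10124) had above 100 counts in every library, as had Crebbp and Maml3. Snw1, a coregulator, shared this, at 1304 and 4459 against 4299, 3387 and 7108. Kdm5a, a histone demethylase that acts with RBPJ, had 9517 and 5098 against 3, 3960 and 3720, and the deacetylase Hdac1 had 3 and 1502 against 20, 1605 and 2295. The Groucho-type corepressors differed among themselves, Tle1 at 2440 and 3686 against 3, 1003 and 6062, Tle3 at 14 and 2496 against 2, 3401 and 10455 and Tle4 at 1084 and 2008 against 3, 2091 and 10. L3mbtl2, a Polycomb-related repressor, had 45 and 236 against 2, 579 and 0.

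Notch target genes gave little to measure. Of 18, 7 passed the filter, none was called and all 7 overlapped. Among all 10311 tested genes, 8490 overlapped, and DESeq2 called 5.66% higher and 3.67% lower. The 7 had a median log2 fold change of −1.34 against −0.10 for all tested genes. Their median log2 ratio was −0.57 in compE 1 over washout 1 and 0.36 in compE 2 over washout 2. Myc had 7671 and 35489 counts under compE against 19111, 27439 and 47501 in the washout, with compE 1 lowest of the 5. Gata2, a stem cell transcription factor downstream of Notch, shared that low library, at 0 and 9725 against 6718, 7062 and 33387, whereas in the gene-rich pair its log2 ratio was 0.36. Igf1r was steady, at 8510 and 15706 against 8598, 6658 and 10786, and the cell cycle inhibitor Cdkn1a stood at 1803 and 6135 against 4018, 4397 and 11390. Ccnd1 had 0 and 356 against 1, 888 and 7572, Gata3 3 and 1 against 1, 287 and 4413, and Bcl2 3 and 2720 against 6, 57 and 3098. The Hes and Hey repressors did not pass. Hes1 had 977 counts in compE 2 and 748 in washout 2 and at most 1 in the other 3 libraries, so that both gene-rich libraries held it, with and without compE. Hes5, Hey1 and Nrarp were listed at 0 in all 5 libraries, and Hey2, Heyl and Il2ra had at most 2. Tcf7 reached 31 counts in washout 2 and at most 5 elsewhere. Genes that most cells use, such as mt-Co2 and Rpl13, were also listed at 0 in all 5 libraries, so a 0 in every library sets no limit on a gene's transcription here.

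**Figure D3:**
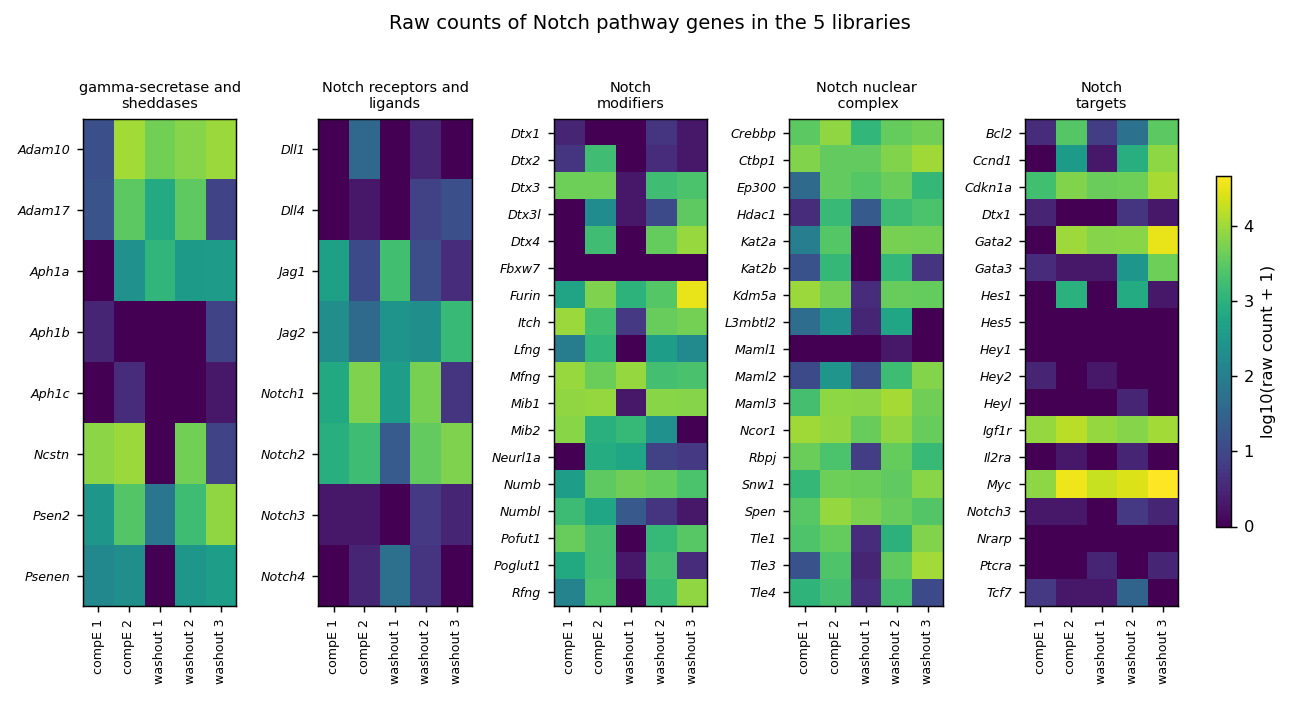
Raw counts, as log10(count + 1) on the color scale, of listed Notch pathway genes (rows) in the 5 libraries (columns), in 5 panels by role. Washout 1 is dark for many genes that the other libraries hold, as for Rbpj with 6 counts there, and many Notch targets are dark in every library.

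The promoter letters of 2 of these genes are shown because RBPJ, the DNA-binding end of the pathway, recognizes the core TGGGAA, and because Hes5 and Lfng represent a target with no counts and a modifier with counts in 4 libraries. Both windows run from 250 bases before to 50 after the RefSeq start on GRCm38.p6, both genes lie on the plus strand, and capitals mark TGGGAA on either strand (TTCCCA is the same core read from the other strand). Hes5 is at chr4:154960673-154960972 and Lfng at chr5:140607091-140607390.
Hes5: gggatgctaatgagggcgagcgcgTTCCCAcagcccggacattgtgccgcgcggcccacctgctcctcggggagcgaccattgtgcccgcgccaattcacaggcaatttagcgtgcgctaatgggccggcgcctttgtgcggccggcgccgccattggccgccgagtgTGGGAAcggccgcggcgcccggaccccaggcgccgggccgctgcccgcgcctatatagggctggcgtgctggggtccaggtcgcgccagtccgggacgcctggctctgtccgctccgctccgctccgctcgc
Lfng: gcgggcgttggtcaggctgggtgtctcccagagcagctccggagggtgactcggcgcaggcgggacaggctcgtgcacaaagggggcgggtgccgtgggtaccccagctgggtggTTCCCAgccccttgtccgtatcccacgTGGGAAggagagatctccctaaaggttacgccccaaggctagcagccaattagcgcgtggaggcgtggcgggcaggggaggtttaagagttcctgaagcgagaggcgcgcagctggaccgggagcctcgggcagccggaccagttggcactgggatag
Each window held 2 cores, and both windows held the longer GTGGGAA. The core was present in 28.3% of all 27025 promoters of this length and in 26.4% of those of tested genes. It was present in 30.8% of the promoters of genes with both compE libraries above the washout, and in 23.8% of those below. For genes called by DESeq2 the shares were 26.4% (higher) and 24.4% (lower), and for the Notch targets 38.5% (5 of 13 with a window). The longer GTGGGAA was in 7.25% of all promoters, 6.97% of those above and 7.28% of those below. A match is a description of the letters, and windows of Hes1 and Hey1 were not used here.

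γ-secretase also cuts other membrane proteins, of which 13 were tested. DESeq2 called 2 higher and 1 lower (5.66% and 3.67% of all tested genes). By position 1 lay above the washout (10.9% of all tested genes), and the median log2 fold change was 0.02. Aplp2, a relative of the amyloid precursor, had 1268 and 2676 counts under compE against 1, 1401 and 5 in the washout (adjusted p = 0.0172 by DESeq2), and did not overlap. Sorl1, a sorting receptor, had 6870 and 806 against 1, 1054 and 3 (adjusted p = 0.00174 by DESeq2), with washout 2 above compE 2. The interleukin-1 receptor Il1r1 was called lower with 16 and 6 counts against 2, 1288 and 44 (adjusted p = 0.0333 by DESeq2), with washout 2 far above the other 4 libraries. App itself had 2 and 2727 against 1197, 333 and 2252, and the adhesion receptor Cd44 stood level at 10549 and 23321 against 10362, 19050 and 12901. Efnb2, an arterial ligand that did not pass the filter, had 561 counts in compE 2 and at most 3 in the other 4 libraries.

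The 2369 genes with at least 100 counts in all 5 libraries (23% of those tested) differed less. Their median absolute log2 fold change was 0.68, against 1.35 for all tested genes, and their median standard error was 1.96 against 2.72. Their median absolute log2 fold change was 0.47 without compE 1, 1.29 without compE 2 and 1.34 without washout 2. Both compE libraries lay above the washout for 134 of them (5.66%) and below for 261 (11%), and DESeq2 called 3 higher and 6 lower. Actb, which encodes cytoplasmic β-actin, had the smallest edgeR p among them. It lies on chromosome 5 from 142903115 to 142906754 on the minus strand of GRCm38, and stood at 1205 and 1114 CPM with compE and at 2629, 2210 and 2233 CPM in the washout. That is 1159 ± 64.4 (SD, n = 2) against 2358 ± 236 CPM (SD, n = 3), with no overlap. The edgeR log2 fold change of Actb was −1.24 ± 0.36 (SE), and the adjusted p was 1.0 by edgeR and 0.0598 by DESeq2. Fth1, the heavy chain of the iron store ferritin, lies on chromosome 19 from 9980598 to 9985098 on the plus strand, and had 2700 and 3276 CPM with compE and 3600, 4222 and 4057 CPM in the washout. For Fth1 the log2 fold change was −0.48 ± 0.16 (SE), again with an adjusted p of 1.0 by edgeR, and 0.621 by DESeq2. Within these 5 libraries, both genes, which were picked by their p, kept the conditions apart with a small spread, in gene-rich and gene-poor libraries alike. The spread was wider under Fc-JAG1. In Fc-JAG1 1 and Fc-JAG1 3, Actb had 72393 and 16342 counts and Fth1 had 162820 and 77622.

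Other genes of the same selection had negative fold changes. Npm1, a nucleolar chaperone, had 773 and 1097 CPM with compE and 1926, 1345 and 1185 CPM in the washout, with an edgeR log2 fold change of −0.88 ± 0.48 (SE). Ncl, the nucleolar protein nucleolin, had 2148 and 2465 CPM against 4915, 2414 and 1967, and Rpl4, of the large ribosomal subunit, 1221 and 1448 CPM against 2900, 1398 and 2311. Ncl and Rpl4 overlapped, and their log2 fold changes (−0.47 ± 0.26 and −0.65 ± 0.35, SE) were 0.03 and 0.05 without compE 1. A wider gap was that of Cpa3, a mast cell and progenitor protease, with 550 and 555 counts under compE against 19289, 2005 and 7526 in the washout. Cpa3 was called lower by DESeq2 (adjusted p = 0.0171) with an edgeR log2 fold change of −3.65 ± 1.93 (SE). Gpx1, a peroxide-reducing enzyme, had 272 and 904 CPM against 860, 1240 and 1740. The zinc finger gene Zfp599 had 1015 and 770 CPM against 7293, 915 and 2626, and the splicing regulator Mbnl1 190 and 548 CPM against 1859, 642 and 479. These 3 genes overlapped.

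On the other side, Eif4a2, an RNA helicase of translation initiation, had 648 and 495 CPM with compE and 22.5, 262 and 243 CPM in the washout. Its edgeR log2 fold change was 2.65 ± 1.27 (SE) and DESeq2 called it higher (adjusted p = 0.047). Tkt, the transketolase of the pentose phosphate pathway, had 1516 and 599 CPM against 225, 453 and 492. Rapgef6, an activator of Rap GTPases, had 433 and 245 CPM against 6.68, 123 and 28.4 and was also called (adjusted p = 0.0431 by DESeq2). Hjurp, the chaperone of the centromeric histone, was the third gene called higher. Macf1, a linker of actin and microtubules, had 719 and 392 CPM against 87.0, 180 and 13.6, and Pip4k2a, a lipid kinase, 1013 and 352 CPM against 314, 120 and 282. None of these overlapped. Smc4, a condensin subunit, had 720 and 247 CPM against 33.5, 255 and 13.1, Plcg2, a phospholipase of immune receptor signaling, 2087 and 516 against 768, 414 and 257, and Fam193b 675 and 121 against 12.9, 100 and 189, and these 3 overlapped. Without compE 1, the fold change of Smc4 turned to −0.04 and that of CT010467.1 (6949 and 5569 CPM against 2987, 6068 and 1027) to −0.12.

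**Figure D4:**
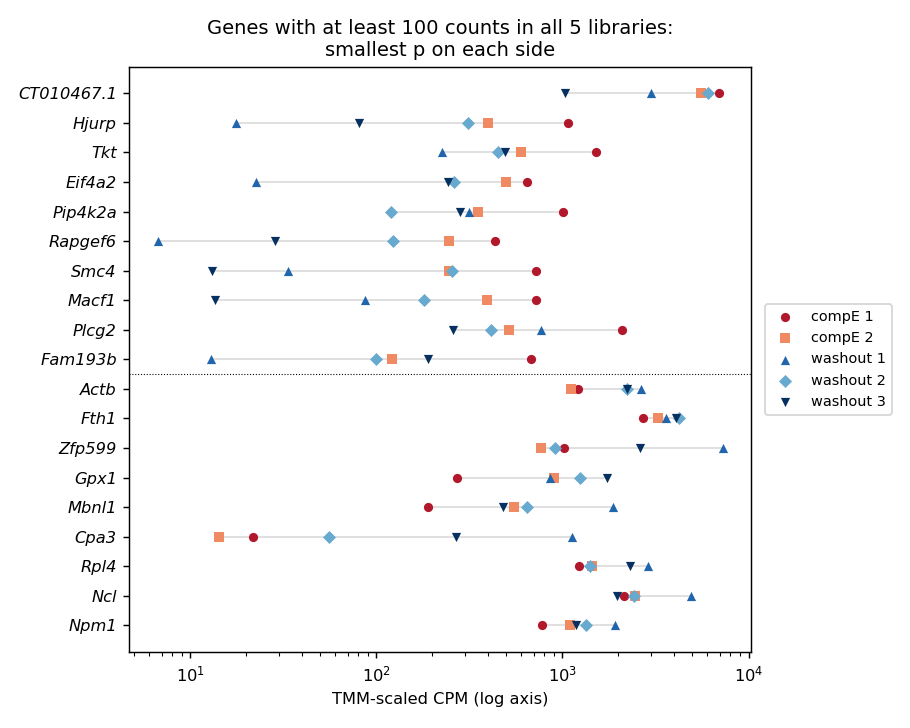
TMM-scaled CPM (x axis, log scale) in each of the 5 libraries for 19 genes (y axis) with the smallest edgeR p on each side among those with at least 100 counts in all 5 libraries, 10 higher with compE above the dotted line and 9 lower below it. Actb and Fth1 have the narrowest gaps between libraries of 1 condition, whereas Cpa3 runs from 14.3 to 1120 CPM.

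The genes with the smallest edgeR p among those that did not overlap were mostly of low count. Of the 12 on the higher side, 8 were at 0 in all 3 washout libraries, among them Zfp931, a zinc finger gene, with 56 and 107 counts with compE, and Phf11c with 167 and 101. These 2 were at least 20.5-fold and 37.9-fold higher by the floor. Plcg1, a phospholipase downstream of growth factor receptors, had 494 and 112 counts under compE against 0, 0 and 1 in the washout, and DESeq2 called it (adjusted p = 0.000415). Lypd6, a regulator of Wnt signaling, had 73 and 61 against 2, 3 and 0 (adjusted p = 0.0395 by DESeq2). Gramd1c, a sterol transporter, had 25 and 224 against 0, 1 and 0, and Stum 84 and 71 against 0, 2 and 0. The other 5 were Ceacam20, A730063M14Rik, BC028777, AC121539.1 and Gm8801, at 13 to 200 counts with compE, together with Dll3 above. On the lower side, besides Actb, Fth1 and the kinase Camkk1, Slc10a6, a transporter of sulfated steroids, had 1 and 1 counts under compE against 14, 55 and 3 in the washout, and Rph3al, an effector of Rab GTPases, 4 and 2 against 40, 50 and 7. Gm6706 was at 0 with compE and at 90, 5 and 47 in the washout, at least 23.9-fold below the mean washout CPM. The remaining 6, Gm31447, Gm11273, BC051077, Gm26901, Ccdc187 and Gm40658, had at most 3 counts in either compE library. In all, 37 genes were at 0 in the whole washout with at least 10 counts in both compE libraries, and 10 were at 0 in both compE libraries with at least 10 in every washout library.

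Immediate early genes, which respond to signals within minutes, were called in both directions. Of 16 tested, DESeq2 called 2 higher and 2 lower, where all tested genes had 5.66% and 3.67%. By position 3 lay above the washout and 1 below, where all tested genes had 10.9% and 6.79%. The median log2 fold change was −1.52 against −0.10 for all tested genes. The median log2 ratio was −1.59 in compE 1 over washout 1 and −0.07 in compE 2 over washout 2. Egr3, a zinc finger factor of receptor signaling on chromosome 14 (70077203 to 70082614, plus strand), had 4354 and 1061 counts under compE against 5, 1 and 0 in the washout. DESeq2's adjusted p for Egr3 was 0.0252 and edgeR's unadjusted p was 0.0113. Ier3, an NF-κB-responsive survival gene on chromosome 17 (35821684 to 35822923, plus strand), was at 0 and 0 counts with compE and at 4103, 808 and 3194 in the washout. By the floor, that is at least 1273-fold below the washout mean of 125 CPM, over washout libraries at 238, 22.4 and 114 CPM. The DESeq2 adjusted p was 0.000291 and the edgeR unadjusted p was 0.0403. Among the 5 libraries, Egr3 and Ier3 separated the conditions in both the gene-rich and the gene-poor ones. In Fc-JAG1 1 and Fc-JAG1 3, which had the same treatment, Egr3 had 0 and 1986 counts and Ier3 had 1836 and 0. A 0 for these genes thus also occurred between libraries of 1 treatment. Dusp1, a phosphatase that turns off MAP kinases, had 1790 and 730 against 1, 493 and 8 (adjusted p = 0.0157 by DESeq2), and Junb, an AP-1 subunit, 0 and 5138 against 6092, 3993 and 4812 (adjusted p = 0.0203 by DESeq2). For Junb compE 1, at 0, was low and compE 2 lay within the washout range by CPM. Nr4a2, a nuclear receptor, had 4 and 517 counts against 0, 0 and 1 and could not be called, with at least 10 counts in only 1 library. Egr1 (0 and 1372 against 0, 1277 and 7211) was highest in washout 3, and Atf3 (1 and 2213 against 1, 1172 and 0) was held by the gene-rich libraries, and both overlapped.

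Long noncoding RNAs kept in the nucleus had 12 tested members, with a median log2 fold change of 0.43. DESeq2 called 2 higher and 1 lower (5.66% and 3.67% of all tested genes). By position 3 lay above and 1 below (10.9% and 6.79% of all tested genes). H19, the imprinted growth-restraining RNA on chromosome 7 (142575529 to 142578143, minus strand), was at 0 and 0 counts with compE and at 4888, 870 and 2 in the washout. By the floor it was at least 1047-fold below the washout mean of 103 CPM (adjusted p = 0.00315 by DESeq2). Washout 1 supplied most of that mean, at 284 CPM against 24.1 CPM in washout 2. Washout 3 was itself under the floor of 3 counts, and H19 was also at 0 counts in Fc-JAG1 1 and Fc-JAG1 3. Meg3, also imprinted, went the other way with 3115 and 403 against 0, 130 and 0 (adjusted p = 0.0138 by DESeq2). Firre, an X-linked RNA that anchors chromatin, had 9668 and 4056 against 1, 390 and 4654 (adjusted p = 0.0443 by DESeq2), where washout 3 lay above compE 2 by count and CPM. Gas5 was high in every library, at 1626 and 1098 CPM with compE and 1003, 761 and 897 CPM in the washout. It did not overlap and was not called (adjusted p = 0.694 by DESeq2). Malat1 overlapped at 14462 and 25538 counts against 12048, 13716 and 20196.

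Autophagy genes had the highest median of the larger lists. Of 30 tested, DESeq2 called 5 higher and none lower (5.66% and 3.67% of all tested genes), 4 lay above the washout and none below (10.9% and 6.79% of all tested genes), and the median log2 fold change was 1.57, made of a median log2 ratio of 3.96 in compE 1 over washout 1 and 0.19 in compE 2 over washout 2. Atg2a, a lipid transporter of the growing autophagosome, had 1601 and 3443 counts against 0, 911 and 0, and Atg4a, a protease that primes ATG8 proteins, 1069 and 24 against 2, 2 and 1. Lamp2, a lysosomal membrane protein, was called with 4177 and 4295 against 0, 4525 and 0, although washout 2 held more counts than either compE library. Sqstm1, the cargo receptor p62, was not called, at 22316 and 12626 against 0, 10110 and 40469. NF-κB and innate signaling genes shared this split between the pairs, with medians of 2.17 and 0.17. Of 24 tested, 4 were called higher and none lower, and 5 lay above. Tab1, an activator of the kinase TAK1, had 7166 and 1756 counts against 3, 1274 and 0 (adjusted p = 0.00538 by DESeq2), and Irak4, a kinase of Toll-like receptor signaling, 3931 and 616 against 0, 810 and 2 (adjusted p = 0.0022 by DESeq2). Irak4 overlapped, since washout 2 lay above compE 2. Nfkbia, the inhibitor IκBα, was not called at 12875 and 4361 against 0, 5695 and 15246.

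Cell cycle genes gave calls in both directions, against 5.66% of all tested genes called higher and 3.67% lower. Among 46 genes of the G1/S list there were 2 DESeq2 calls higher and 1 lower, with 6 above and 2 below (10.9% and 6.79% of all tested genes) and a median log2 fold change of 0.02. E2f2, an activator of S-phase genes, was the one called lower, with 23 and 0 counts against 18, 1395 and 5136 (adjusted p = 0.00206 by DESeq2), whereas its relative E2f3 lay above with 8071 and 7284 against 1698, 3477 and 5172 and was not called. Rrm2, of ribonucleotide reductase, was not called at 11.7 and 150 CPM against 47.0, 346 and 776. Of 50 G2/M genes, 3 were called higher and none lower, with 5 above and 3 below and a median of 0.36. Nusap1, a spindle protein, had 6006 and 7261 counts against 1, 3008 and 25 (adjusted p = 0.0169 by DESeq2), and the kinesin Kif4 13429 and 1236 against 1, 1578 and 0 (adjusted p = 0.000552 by DESeq2). Top2a, the topoisomerase of dividing cells, lay below the washout and was not called, at 6373 and 18094 against 27518, 20478 and 13442 counts.

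Blood-forming transcription factors had 19 tested members, 4 above, 2 below, and Gfi1 alone called, lower. Of all tested genes, 10.9% lay above and 6.79% below, and 5.66% were called higher and 3.67% lower. Fli1, an ETS factor shared by blood and endothelium, had 12438 and 16378 counts under compE against 2419, 12880 and 2523 in the washout, and Mecom, a factor of stem cell maintenance, 1851 and 805 against 46, 593 and 38. Both lay above the washout by CPM, neither was called (adjusted p = 0.525 and 0.362 by DESeq2), and the gap to washout 2 was small for Fli1. Gfi1b had 4053 and 4491 against 0, 2891 and 1298. Myb, a factor of definitive blood progenitors, lay below at 1417 and 8279 against 6878, 12384 and 8699, as did Lmo4 at 1656 and 1170 against 4350, 3716 and 5924, the latter at 65.5 and 30.2 CPM against 253, 103 and 211 CPM (adjusted p = 0.386 by DESeq2). Of 14 stem cell surface genes 1 was called, lower, and the median was 0.21. Kit overlapped at 546 and 499 CPM against 370, 181 and 676. The 12 tested endothelial and arterial genes held no call and no member outside the washout range, with a median of −0.90. Of 19 myeloid genes, none lay above, 2 lay below and 1 was called, lower. Tyrobp, the DAP12 adaptor of myeloid receptors, had 854 and 1514 counts against 6122, 5550 and 6943 (adjusted p = 0.0829 by DESeq2), low in both compE libraries, and Fcer1g, its partner chain, 1576 and 3575 against 3051, 4076 and 10284. S100a8, a granulocyte protein, had 0 and 2862 against 1074, 21000 and 13874, and Mpo, the granule peroxidase, 731 and 192 CPM against 5.57, 254 and 559. The macrophage markers share Lyz2 with the myeloid list. Of the 5 tested, DESeq2 called 3 lower (Mertk, Ctss and Lyz2, the last also the myeloid gene called). Ctss lay below every washout library, whereas Mertk and Lyz2 overlapped. Mertk had 3 and 2 counts under compE against 10, 54 and 1 in the washout. Lyz2 had 0 and 5371 against 2609, 10317 and 2275, with compE 1 alone at 0. The median log2 fold change of the 5 was −3.74 against −0.10 for all tested genes. The markers that did not pass the filter differed among themselves. Adgre1 had 3 and 3361 counts under compE against 3, 476 and 5 in the washout, and C1qa 0 and 0 against 0, 259 and 0. The part of the macrophage markers in the myeloid values was not tested. Of 13 lymphoid genes 1 was called, lower, and of 14 erythroid and megakaryocyte genes none, with medians of 0.00 and 0.41.

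**Figure D5:**
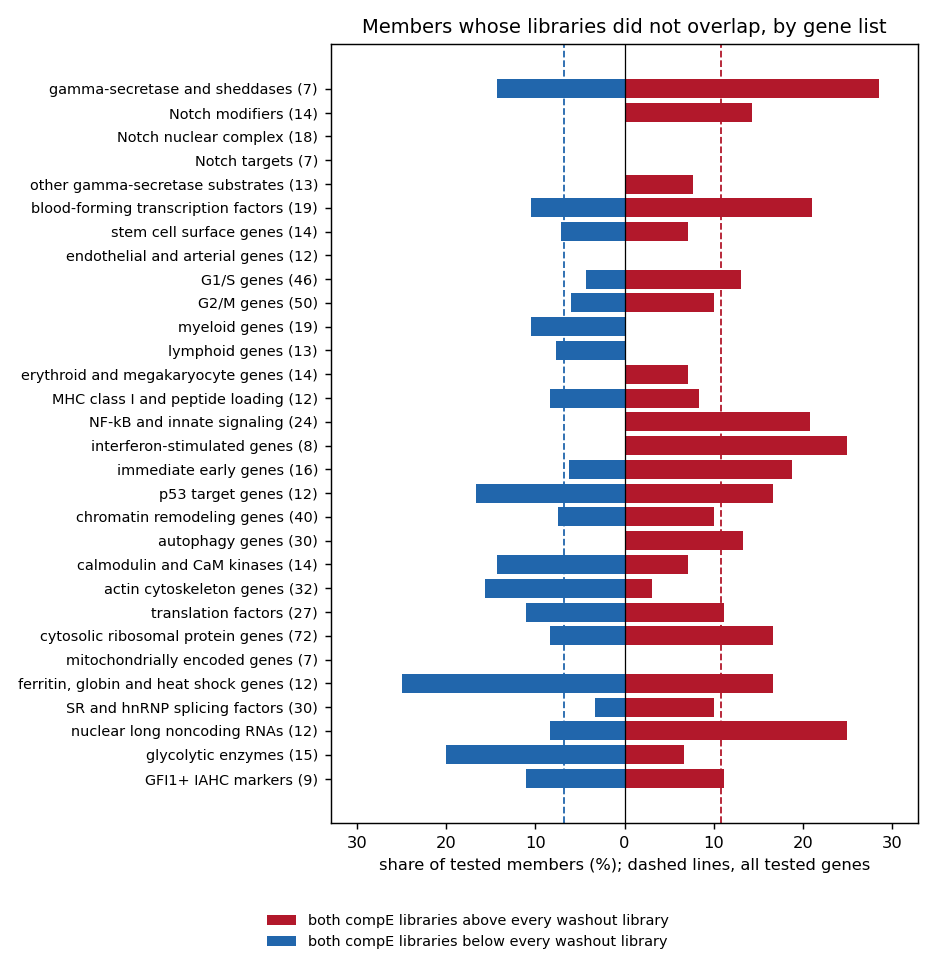
Share of the tested members (x axis, %) of each list with at least 7 tested genes (y axis, number in parentheses) whose 2 compE libraries both lay above (red, to the right) or below (blue, to the left) every washout library. Dashed lines mark the shares of all tested genes, 10.9% above and 6.79% below, and most bars rest on 1 to 5 genes.

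Genes of the cell's basic machinery are read against the same shares of all tested genes, 10.9% above, 6.79% below, 5.66% called higher and 3.67% called lower. Of 72 cytosolic ribosomal protein genes, 12 lay above and 6 below, DESeq2 called 1 higher, and the median log2 fold change was 0.06. That 1 was Rps27, at 3430 and 757 counts against 0, 535 and 0. Of 27 translation factors, 3 lay above and 3 below, with 1 called each way, Eif4a2 and, lower, Eif1ax at 0 and 5879 against 2634, 7219 and 13006. Of 32 actin cytoskeleton genes, 1 lay above and 5 below, and Cap1 was called lower with compE 1 at 0 (0 and 5191 against 1336, 5023 and 8976). The 5 were Actb, Arpc5, Actr3, Myh9 and Myl6, with a list median of −0.52 and a median of −0.09 in the gene-rich pair. Myh9, a nonmuscle myosin, stood at 7244 and 13737 counts against 13064, 12907 and 23453. Glycolytic enzymes had 15 tested members, 1 above and 3 below (Aldoa, Pkm and Ldha), with no call. Pkm, pyruvate kinase, had 291 and 294 CPM with compE and 516, 410 and 916 CPM in the washout. SR and hnRNP splicing factors had 30, with 3 above, 1 below and no call, and chromatin remodeling genes had 40, with 4 above, 3 below and 1 called. That was Chd1, a remodeler of active genes, at 5598 and 10694 against 33, 6578 and 4 counts (adjusted p = 0.0443 by DESeq2). Ruvbl2, an ATPase of the INO80 and TIP60 complexes, lay below at 1428 and 4861 against 18165, 9187 and 6456. All 7 tested mitochondrially encoded genes overlapped, with mt-Cytb at 23430 and 2870 CPM against 54715, 2494 and 11287, in the order of the libraries' mitochondrial shares.

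The remaining lists were small and are read against the same shares of all tested genes. Of 12 p53 target genes 2 lay above, 2 below and 1 was called higher, Sesn1, a stress-induced brake on growth signaling, with 2960 and 2294 counts against 4, 641 and 2 (adjusted p = 0.0185 by DESeq2). Bax, a mediator of cell death, lay below at 2831 and 3523 against 6181, 4466 and 5175. Of 14 calmodulin and CaM kinase genes 1 was called higher, Camkk2, at 6342 and 4532 against 10, 1467 and 16 (adjusted p = 0.0137 by DESeq2), and 1 lower, its relative Camkk1, the opposite direction. Of 8 interferon-stimulated genes none was called and 2 lay above (Phf11c and Ifi35). Among 12 MHC class I and peptide loading genes none was called, with Tapbp above and Psme2 below. Of 12 ferritin, globin and heat shock genes 2 lay above (Hspa8 and Hspd1) and 3 below (Fth1, Hsp90aa1 and Hspe1), and none was called. Hsp90ab1, a cytosolic chaperone, overlapped, at 2388 and 2475 CPM with compE and 3174, 2358 and 2415 CPM in the washout.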

How the data were processed

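Nascent RNA was measured in 7 libraries (3 washout, 2 compE, 2 Fc-JAG1), of which 5 make the comparison. Per the methods and labels, EU-labelled RNA was captured, pre-amplified (14 cycles in the labels, another number in the methods) and sequenced. The raw counts per gene deposited by the authors came from featureCounts (Subread 2.0.1) over uniquely mapped reads, after trimming (cutadapt 4.2) and alignment by STAR 2.7.8 to GRCm38. The strand setting is not given in the sources used here. The deposited filtered counts keep 10311 of 55487 genes, a gene needing 10 counts or more in 2 or more libraries of 1 condition. The deposited table of transformed values was not used. GENCODE M21 gave a position for 55227 genes.

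Here edgeR 4.0.16 under R 4.3.3 was fitted to the counts (quasi-likelihood test, TMM, terms for biological sample and condition, all 7 libraries) and, as an alternative, DESeq2 1.42.0 (Wald test). The Benjamini-Hochberg adjustment ran over all tested genes for edgeR, and 0.05 was the threshold. For DESeq2 the default settings were kept, which can leave genes out of the adjustment. CPM are TMM-scaled, and log2 ratios use CPM + 1. Differences between conditions are compE minus washout. The SE given with an edgeR log2 fold change is not an output of the test. It was taken as the absolute log2 fold change over the square root of the F statistic. A bound against a condition at 0 sets the mean CPM of the other condition against 3 counts per library, so it does not hold for each library. The sample numbers were taken as pairs because the study's samples are paired. As a check, the correlation between same-numbered libraries, each taken as its deviation from the mean of its condition, was −0.0721 to 0.074, so the data do not settle the pairing. Total counts of 21652927 to 33974693 set the counting precision. The libraries carry no molecular identifiers, so bounds cover counting error only, and reads of overlapping or near-identical genes cannot be told apart here.

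Named genes were the 12 smallest edgeR p on each side among genes that did not overlap, the 10 smallest on each side among genes with at least 100 counts in all 5 libraries, members of the Notch lists, and the 3 smallest p of each other list. Members of lists that were called or did not overlap, and other list members given by their counts, were named after their values were seen. Some genes that these rules name are not reported here. The members and lists were chosen with earlier results of these data known. On simulated data with 200 genes changed 4-fold, both tests were checked before use. Promoter windows are from RefSeq, and 7764 of the tested genes had one. Figures were drawn with matplotlib 3.10.9. The alternatives were other scalings, filters and tests, no replicate block, only the 5 libraries, and leaving out each library.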

Additional observations from a re-analysis of the deposited data

How the results depend on the processing

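edgeR's quasi-likelihood test called 0 genes in all 15 fits run, among them the fit with no replicate block (0 called, smallest adjusted p = 0.0859, 368 higher and 253 lower at an unadjusted p under 0.05). Its likelihood ratio test called 1 gene higher, limma voom 1 lower, and DESeq2 584 higher and 378 lower. The DESeq2 counts fell to 150 higher and 175 lower with no replicate block, so the pairing of samples moves them by over 1.5 times, and to 365 and 125 with filterByExpr. Leaving out 1 library gave 13 to 1334 higher and 77 to 1096 lower. The genes with both compE libraries above every washout library numbered 1608 to 2667, and those below 1279 to 2384, when 1 library was left out, since fewer libraries make separation easier. The median absolute log2 fold change of genes with at least 100 counts in all 5 libraries ran from 0.47 to 1.34 when 1 library was left out, and that of the median gene from −0.47 to 0.20. Of 280 fold changes of the 20 steadily counted genes under the alternatives, 275 kept their direction. The exceptions came from leaving out 1 library, where CT010467.1 ran from −0.12 to 1.83, Smc4 from −0.04 to 5.05, Rpl4 from −1.40 to 0.05 and Ncl from −1.02 to 0.08. DESeq2 called 4 of the 20. The causes were not tested. With a median standard error of 2.72 on the log2 scale, a gene that was not called is not shown to be unchanged.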
